A study of Mus musculus with 19 samples.

Results

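The transcription factors that define the projection neurons of the mouse striatum were followed across 4 genotypes of a Huntington's disease knock-in (KI) series. The genes were taken from a given list of 10 members, Bcl11b, Foxp1, Foxp2, Meis2, Rarb, Rxrg, Ebf1, Zfp503, Tshz1 and Mef2c, out of the 54232 gene identifiers of the count table. All 10 passed the filter on low counts that left 18521 genes to be tested, so that no member was lost. Striatal RNA was sequenced from 7 wild-type (WT) mice and from 4 mice each of the lines KI-FL, KI-571 and KI-96, all on the C57/BL/6 strain background and 6 months old. KI-FL mice are HD140Q knock-in mice and express full-length mutant huntingtin (HTT) with an expanded polyglutamine repeat from the mouse Htt gene. CRISPR/Cas9 was used to truncate that mutant allele in KI-96 and in KI-571, which make N-terminal fragments that keep the repeat, the shorter one in KI-96. KI mice were heterozygous, so that a normal Htt allele remained in each of them, and the KI-571 line rests on a single founder. Sex is not labelled, nor is the sacrifice batch, a covariate in the methods of the study. Values for the KI genotypes are given in the order KI-96, KI-571, KI-FL unless named.

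Striatal projection neurons are the inhibitory output neurons of the striatum and the cells most affected in Huntington's disease. They arise from the lateral ganglionic eminence, and their identity is set up and then kept by a combination of transcription factors that remain switched on in the adult. Bcl11b, a zinc finger factor, and Foxp1, a forkhead repressor, are needed for their differentiation, and Meis2 is a homeodomain factor of the same lineage. Rarb and Rxrg encode nuclear receptors that pair to read out retinoic acid. Foxp2, Ebf1, Zfp503 and Tshz1 are linked to subsets of the neurons, such as the direct pathway or the striosomes, and Mef2c is a factor regulated by neuronal activity that is also strongly expressed in cortical neurons.

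The promoters of the genes are printed for a pair of members. Zfp503 was taken as the only gene of the list that passed the test between genotypes, in KI-FL against WT mice and close to the threshold. Rarb was taken because it holds a retinoid response element. Sequences were taken from RefSeq on GRCm38.p6, from 250 bases before to 50 bases after the annotated start, and 8 of the members were matched, with 14 promoters. In the Rarb promoter, at chr14:16575427-16575726 on the minus strand, capitals mark the element, a pair of half-sites in the same direction 5 bases apart.

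Rarb: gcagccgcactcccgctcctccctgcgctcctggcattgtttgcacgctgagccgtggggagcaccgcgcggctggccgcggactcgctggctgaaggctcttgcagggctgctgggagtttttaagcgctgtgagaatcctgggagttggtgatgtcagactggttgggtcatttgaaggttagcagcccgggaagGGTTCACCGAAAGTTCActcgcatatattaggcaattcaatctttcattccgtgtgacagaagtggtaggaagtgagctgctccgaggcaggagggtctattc

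Zfp503: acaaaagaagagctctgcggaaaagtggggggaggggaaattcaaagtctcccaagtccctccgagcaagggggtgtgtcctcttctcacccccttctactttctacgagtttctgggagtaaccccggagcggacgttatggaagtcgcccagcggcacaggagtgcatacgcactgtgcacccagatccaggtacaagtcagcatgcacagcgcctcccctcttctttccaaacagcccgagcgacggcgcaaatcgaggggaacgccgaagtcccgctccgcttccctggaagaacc

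The Zfp503 promoter lies at chr14:21989552-21989851, also on the minus strand, and holds none of the motifs searched, so that it has no capitals. The retinoid element in Rarb begins at position -53 relative to the start and reads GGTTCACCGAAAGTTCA. Elements of this spacing, known as DR5, were searched on both strands and found in 1 of the 14 member promoters and in 0.0983% of 32544 promoters of the same length. The related spacings DR1 and DR2 were found in 0 of the 14, against 0.224% and 0.27% of all promoters, and the motif TATAAA in 28.6% of the 14 against 13.6%. DR1, DR2 and DR5 use the same half-site pattern and differ by their spacing. Median GC content was 52% in the member promoters and 53% in all, with a median of 11.5 and 7 CpG sites.

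The genes are long, apart from Zfp503. Rxrg spans 41.2 kb, at the 70.2 percentile of the tested genes. Foxp1 (chr6:98925338-99522721, GRCm38, minus strand) spans 597 kb and Foxp2 (chr6:14901349-15441977, plus strand) 541 kb. Ebf1 (chr11:44617317-45008091, plus strand) and Rarb (chr14:16430839-16819156, minus strand) span 391 and 388 kb. The tested genes had a median length of 19.2 kb, and Foxp1 stood at their 99.2 percentile and Zfp503 at the 22.8 percentile, since Zfp503 (chr14:21983959-21989601, minus strand) spans only 5.64 kb. The remaining members are Meis2 (chr2:115863064-116065839, minus strand), Mef2c (chr13:83504034-83667080, plus strand), Bcl11b (chr12:107910403-108003602, minus strand), Tshz1 (chr18:84011627-84087706, minus strand) and Rxrg (chr1:167598384-167639623, plus strand). Exons of Rarb overlap those of Top2b on the opposite strand, a gene with 1506 to 2979 reads per mouse against 548 to 1153 for Rarb, and the strand setting of the counting is not given in the sources used here. The Rarb values are therefore uncertain to that extent.

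The libraries held 12669809 to 26388542 reads assigned to genes (median 18202412), and each member had at least 165 reads in each mouse. All 24 striatal projection neuron markers were detected in every mouse, with a summed level of 12782 to 20536 CPM (counts scaled to the size of the library). A few libraries stood apart from the rest. WT mouse 3 held 1250 CPM of 11 cortical neuron markers, against 140 to 209 in the other WT mice, and all 11 had reads in every WT mouse. KI-571 mouse 2 held 577 CPM of them, against 156 to 268 in the other KI mice. KI-96 mouse 3 had 24.2% of its reads on no gene, whereas no other mouse exceeded 16.0%, and in KI-FL mouse 4 only 16384 genes were detected. Choroid plexus markers summed to 48.1 to 5429 CPM in KI-571 mice and 40.8 to 3074 CPM in KI-FL mice, against 49.0 to 414 CPM in WT mice. Xist, which is expressed from the inactive X chromosome of females, lay between 886 and 1615 CPM in all 4 KI-96 mice and between 0.913 and 5.05 CPM in all 4 KI-571 mice, so that KI-96 against KI-571 and the level of this marker cannot be told apart. Its level ranged from 0.267 to 1055 CPM in WT mice with a median of 0.777, and from 1.06 to 1210 CPM in KI-FL mice with a median of 2.26. Above 100 CPM were 1 of 7 WT, 4 of 4 KI-96, 0 of 4 KI-571 and 1 of 4 KI-FL mice, so that KI-96 also differed from WT in this marker, all but 1 of the WT mice being low. Htt itself was at 178 ± 9.80 CPM in WT (SD, n = 7), 186 ± 40.1 in KI-96, 124 ± 15.3 in KI-571 and 158 ± 17.5 in KI-FL mice (n = 4 each).

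Levels of different genes were compared per length, in TPM (reads per kilobase of exon, scaled to the library). In WT mice Bcl11b was at 163 ± 15.8 TPM (SD, n = 7), Rxrg at 152 ± 32.6 and Meis2 at 110 ± 15.1. These were followed by Foxp1 at 76.6 ± 7.42, Mef2c at 39.8 ± 10.99, Tshz1 at 30.5 ± 3.67 and Rarb at 27.8 ± 3.64. The lowest levels were those of Zfp503 at 23.8 ± 3.77, Foxp2 at 16.6 ± 1.88 and Ebf1 at 7.23 ± 1.14 TPM. Bcl11b thus stood at the 95.2 percentile of all tested genes and Ebf1 at the 39.4 percentile. Of the neighbours in this order, the ranges over the WT mice were separate between Foxp1 and Mef2c and between Foxp2 and Ebf1, and overlapped between all others. Bcl11b was above Rxrg in 4 of 7 WT mice. The order depends on the length used, since with the longest transcript in place of all exons Meis2 led at 193 ± 26.8 TPM, and 39 of the 45 pairs of genes kept their order. Among the KI genotypes the order by all exons changed at Rxrg, which led in KI-571 mice at 196 ± 29.5 TPM beside 175 ± 28.7 for Bcl11b. It also changed at Tshz1, which stood above Mef2c in KI-96 mice at 42.8 ± 16.4 beside 38.5 ± 2.57 TPM. That Tshz1 mean holds KI-96 mouse 3, at 138 CPM beside 47.7 to 65.9 CPM in the other KI-96 mice. In KI-FL mice Zfp503 stood above Rarb at 35.8 ± 3.66 beside 34.2 ± 3.26 TPM. By the longest transcript Tshz1 was below Mef2c in KI-96 mice (36.1 beside 77.9 TPM). Zfp503 was likewise below Rarb in KI-FL mice (28.5 beside 46.1 TPM).

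Expression of the genes was then compared between the genotypes, to ask whether the set of factors changed with the form of mutant HTT. Most members had fitted levels a little above WT in the KI striatum, and a change passed the test for a single gene in a single comparison, Zfp503 in KI-FL mice. Relative to WT, 10 of the 10 log2 fold changes were above 0 in KI-96 mice, 8 in KI-571 and 8 in KI-FL, beside 47.2%, 48.3% and 46.1% of all tested genes. The median log2 fold change of the members was 0.17, 0.088 and 0.21 in the respective genotypes, and that of all tested genes was -0.015, -0.0089 and -0.028. These medians rested in part on single mice. The KI-96 median was 0.074 without KI-96 mouse 3, where 7 members were above 0, and 0.32 without KI-96 mouse 4. In KI-96 mice 8 members were above 0 without KI-96 mouse 2, and 8 with the level of Xist in the model. The KI-571 median was -0.0011 without KI-571 mouse 1, where 5 members were above 0, 0.14 without KI-571 mouse 2 and 0.053 without WT mouse 3. The KI-FL median was 0.12 without KI-FL mouse 1, where 6 were above 0. The 3 comparisons share the same 7 WT mice, so that their agreement in direction is not independent. Because whole tissue was sequenced, a change in the number of these neurons and a change in RNA per neuron cannot be told apart.

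In the quasi-likelihood test of edgeR, adjusted by Benjamini-Hochberg over all 18521 genes, 0 members passed an adjusted p of 0.05 in KI-96 mice, where 0.027% of all genes did, and 0 in KI-571 mice (0.0324% of all genes). In KI-FL mice 1 member passed, against 0.194% of all genes, and in the mean of all KI mice against WT 0 passed (0.054% of all genes). At an unadjusted p under 0.05 the numbers were 2 in KI-96 (7.45% of all genes), 0 in KI-571 (7.72%), 2 in KI-FL (16.7%) and 2 in all KI mice (12.9%). With DESeq2, 0, 0, 1 and 1 members passed the adjusted threshold in the same order, and 2, 1, 1 and 2 had an unadjusted p under 0.05. Groups of mice that did not overlap with WT were found for 0, 0 and 1 members in the 3 KI genotypes, beside 1.24%, 1.55% and 5.29% of all genes. The plot of fold changes by genotype has values mostly to the right of 0 and a single star.

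**Figure D1:**
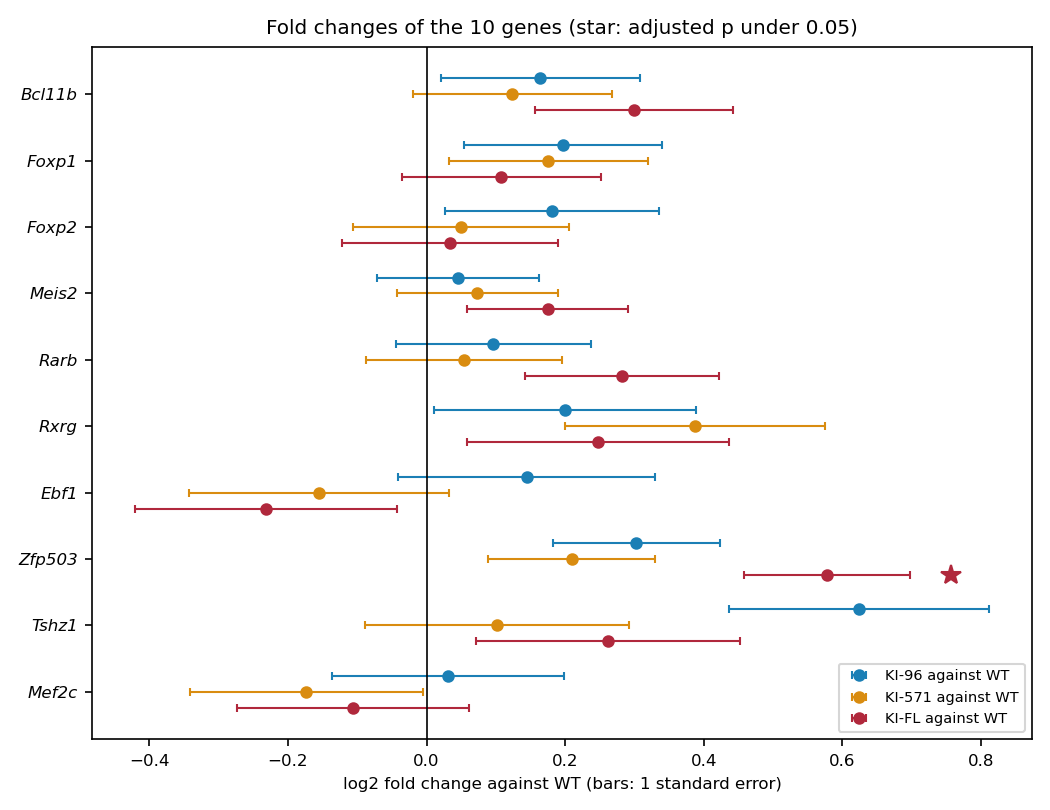
Log2 fold change of each of the 10 genes against WT (horizontal axis) in mice of KI-96 (blue), KI-571 (orange) and KI-FL genotype (red), with bars of 1 standard error from the edgeR fit and a star where the adjusted p was under 0.05. Zfp503 in KI-FL mice carries the star beside its point at 0.58, Tshz1 in KI-96 mice has the highest value at 0.62 with a wider bar, and Ebf1 and Mef2c lie below 0 in KI-571 and KI-FL mice.

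Zfp503 (ENSMUSG00000039081.10) encodes a zinc finger repressor, also called Nolz1, that acts in the developing striatum. Its level in WT mice ran from 21.9 to 34.1 CPM with a median of 28.9. KI-FL mice had 41.2, 43.5, 45.3 and 37.9 CPM. Each KI-FL mouse was thus above the highest WT mouse, a separation found in this direction for 2.9% of all tested genes and for no other member in any pair of genotypes. KI-96 mice had 41.0, 33.5, 33.1 and 31.4 CPM, and KI-571 mice had 39.8, 31.9, 29.8 and 28.5 CPM. These groups overlapped the upper part of the WT range, and their lowest mice lay above the WT mean of 28.1 ± 4.25 CPM (SD, n = 7).

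The log2 fold change of Zfp503 was 0.58 ± 0.12 (SE) in KI-FL mice, or 1.49-fold, and it passed edgeR's quasi-likelihood test with an adjusted p of 0.0462 (4 mice against 7). In KI-96 mice it was 0.30 ± 0.12 with an adjusted p of 0.636, and in KI-571 mice 0.21 ± 0.12 with an adjusted p of 0.753 in the same test. The KI-571 value of Zfp503 was 0.094 without KI-571 mouse 1. The mean of all KI mice exceeded WT by 0.36 ± 0.093 on the log2 scale (edgeR adjusted p = 0.107, and 0.0203 with DESeq2). Compared directly, KI-571 differed from KI-FL by -0.37 ± 0.14 and KI-96 from KI-FL by -0.28 ± 0.14, and neither passed in edgeR (adjusted p = 0.453 and 0.567), so that a difference between the KI genotypes was not shown.

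The call for Zfp503 lies close to the threshold, as the plot of its fold change under each setting shows. Across 30 alternative settings the log2 fold change stayed between 0.51 and 0.66 and the unadjusted p between 8.44e-06 and 0.0023. The adjusted p, however, ran from 0.00318 to 0.428 and was under the threshold in 11, counting a looser threshold of 0.1 that reads the main fit again. It was between 0.0506 and 0.123 when any 1 WT mouse was left out and between 0.0618 and 0.0972 without any 1 KI-FL mouse. Without KI-96 mouse 1 or 2 it was 0.0504 or 0.0615, and without KI-571 mouse 2 or 3 it was 0.063 or 0.0573. It was also above the threshold with the level of Xist in the model (0.0822), with WT mice 1 to 4 alone (0.428) and with WT mice 5 to 7 alone (0.0569), the last of which was added after the data had been seen. With the level of cortical markers in the model it was 0.0447. The choroid plexus markers were high in KI-FL mouse 1 (3074 CPM), which had 41.2 CPM of Zfp503, and at 40.8 to 190 CPM in the other KI-FL mice, which had 37.9 to 45.3.

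**Figure D2:**
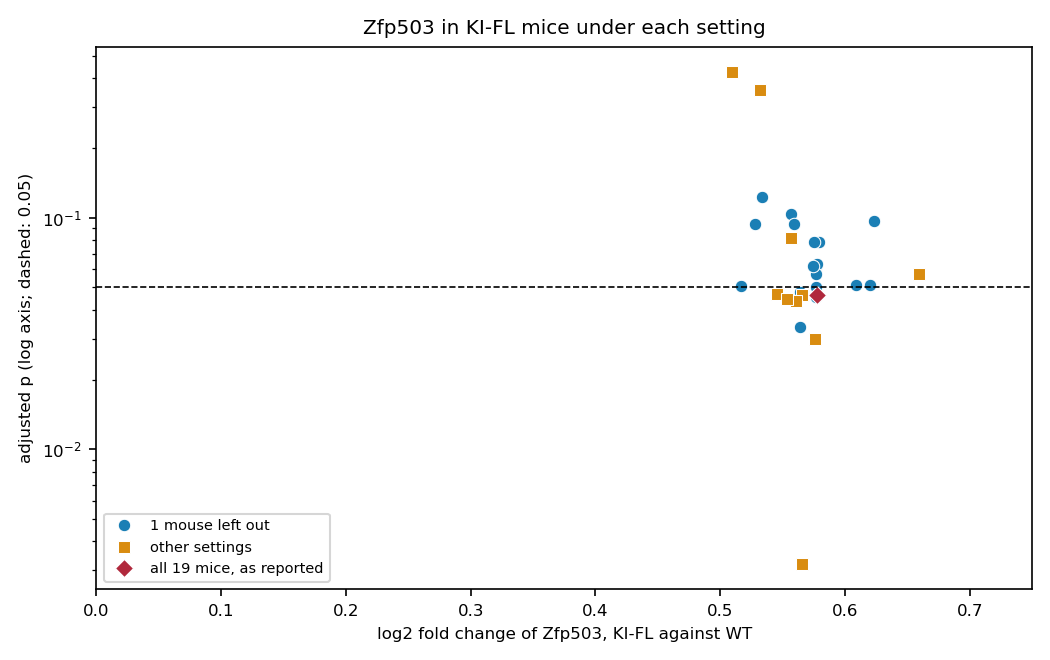
Log2 fold change of Zfp503 in KI-FL against WT mice (horizontal axis) and its adjusted p (vertical axis, log scale) with all 19 mice (red diamond), with each mouse left out in turn (blue circles) and under the other settings (orange squares). The fold change stays between 0.51 and 0.66, while the adjusted p falls on either side of the dashed line at 0.05.

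The differentiation factors Bcl11b, Foxp1 and Meis2 are the more abundant members. Bcl11b (ENSMUSG00000048251.15) ranged from 294 to 419 CPM in WT mice with a median of 383. KI-FL mice had 507, 409.5, 440 and 479 CPM, and overlapped the WT range by a single mouse. KI-96 mice had 479, 452, 465.6 and 275 CPM, and KI-571 mice 523, 363, 412 and 327 CPM. The first 3 KI-96 mice were above all WT mice and the last was below them all. The log2 fold change in KI-FL mice was 0.30 ± 0.14, with an unadjusted p of 0.0478 and an adjusted p of 0.293 in edgeR. In KI-96 and KI-571 mice it was 0.16 ± 0.14 and 0.12 ± 0.14 (adjusted p = 0.833 and 0.951). Without KI-96 mouse 4 the KI-96 value was 0.32 (edgeR adjusted p = 0.292).

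Foxp1 (ENSMUSG00000030067.17) ranged from 250 to 335 CPM in WT mice, with a median of 308. KI-96 mice had 361.5, 361.5, 415 and 221 CPM, KI-571 mice 425, 287, 313 and 313, and KI-FL mice 384, 304.5, 293 and 296. KI-96 mouse 3 and KI-571 mouse 1 were the highest of the series and KI-96 mouse 4 the lowest, and each KI group overlapped WT. Fold changes were 0.20 ± 0.14, 0.18 ± 0.14 and 0.11 ± 0.14 on the log2 scale (edgeR adjusted p = 0.786, 0.888 and 0.726), and without KI-FL mouse 1 the last was -0.0053. Meis2 (ENSMUSG00000027210.20) ranged from 286 to 430 CPM in WT mice, with a median of 383. KI-96 mice had 406, 456, 364 and 310 CPM, KI-571 mice 430, 348, 412 and 376, and KI-FL mice 453, 430, 408 and 389. The KI-FL mice lay in the upper part of the WT range or above it, and the other groups spread over it. Its log2 fold changes were 0.045 ± 0.12, 0.074 ± 0.12 and 0.17 ± 0.12 (edgeR adjusted p = 0.961, 0.965 and 0.453). The KI-96 value changed sign to -0.031 with Xist in the model.

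The retinoid receptors Rarb and Rxrg had values above 0 that did not pass the test. Rarb (ENSMUSG00000017491.9), the receptor that binds retinoic acid, ranged from 32.3 to 46.2 CPM in WT mice with a median of 44.0. KI-FL mice had 52.7, 53.2, 49.9 and 44.4 CPM. Of these, 3 were above all WT mice and 1 was among them. KI-96 mice had 45.6, 49.8, 50.4 and 30.4 CPM and KI-571 mice 52.3, 37.7, 47.5 and 33.3 CPM, and these groups spanned the WT range. The log2 fold change was 0.28 ± 0.14 in KI-FL mice (unadjusted p = 0.0564, adjusted p = 0.313 in edgeR), 0.096 ± 0.14 in KI-96 and 0.054 ± 0.14 in KI-571 mice.

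Rxrg (ENSMUSG00000015843.10), the partner receptor, ranged from 66.0 to 123 CPM in WT mice with a median of 97.8. KI-571 mice had 164, 112, 132 and 108 CPM. KI-96 mice had 114, 163, 92.7 and 83.2 CPM and KI-FL mice 144, 121, 96.6 and 106 CPM. No group was separate from WT, although all KI-571 mice were above the WT median. Its log2 fold change was 0.39 ± 0.19 in KI-571 mice (unadjusted p = 0.0511, adjusted p = 0.652 in edgeR), 0.20 ± 0.19 in KI-96 and 0.25 ± 0.19 in KI-FL mice. Without KI-571 mouse 1 the KI-571 value was 0.25.

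Among the factors linked to subsets of the neurons, Tshz1 (ENSMUSG00000046982.10), a teashirt zinc finger factor found in striosomal neurons, ranged from 42.9 to 58.8 CPM in WT mice with a median of 49.4. KI-96 mice had 65.9, 56.9, 138 and 47.7 CPM. KI-96 mouse 3, the library with the most reads on no gene, was far above all others, and the remaining KI-96 mice lay in or just above the WT range. KI-571 mice had 60.9, 48.9, 47.7 and 57.3 CPM and KI-FL mice 55.8, 58.9, 58.3 and 67.2 CPM. In KI-96 its log2 fold change was 0.62 ± 0.19, with an unadjusted p of 0.00314 and an adjusted p of 0.552 in edgeR, and without KI-96 mouse 3 it was 0.18 with an unadjusted p of 0.135. With the level of Xist in the model it was 0.46 (unadjusted p = 0.129). It was 0.10 ± 0.19 in KI-571 and 0.26 ± 0.19 in KI-FL mice. The direct difference of KI-96 from KI-571 was 0.52 ± 0.22 (edgeR unadjusted p = 0.0243, adjusted p = 0.817) and was 0.078 without KI-96 mouse 3.

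Foxp2 (ENSMUSG00000029563.16), a forkhead factor related to Foxp1, ranged from 63.9 to 87.4 CPM in WT mice with a median of 75.4. KI-96 mice had 89.0, 73.5, 123 and 60.1 CPM, KI-571 mice 107, 63.5, 70.7 and 73.6, and KI-FL mice 89.7, 70.0, 75.7 and 76.4. KI-96 mouse 3 and KI-571 mouse 1 were above the rest and the groups otherwise overlapped. Its log2 fold changes were 0.18 ± 0.15, 0.050 ± 0.16 and 0.034 ± 0.16 (edgeR adjusted p = 0.827, 0.991 and 0.928). Without KI-96 mouse 3 the first was -0.042, and without KI-571 mouse 1 the KI-571 value was -0.14.

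Ebf1 (ENSMUSG00000057098.14), a helix-loop-helix factor of direct pathway neurons, was the least abundant member, with 14.5 to 23.4 CPM in WT mice and a median of 20.2. KI-96 mice had 20.4, 19.1, 31.5 and 16.5 CPM, KI-571 mice 20.8, 14.2, 18.9 and 17.2, and KI-FL mice 23.1, 15.4, 18.1 and 10.8. The highest value was again that of KI-96 mouse 3 and the lowest that of KI-FL mouse 4, the library with few detected genes. The log2 fold changes of 0.14 ± 0.19, -0.16 ± 0.19 and -0.23 ± 0.19 in the respective genotypes did not pass in edgeR (adjusted p = 0.896, 0.956 and 0.547), and without KI-96 mouse 3 the first was -0.089.

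Mef2c (ENSMUSG00000005583.16) ranged from 121 to 287 CPM in WT mice with a median of 174. The highest value was that of WT mouse 3, the library with the high level of cortical neuron markers, and the next WT mouse was at 182. KI-96 mice had 190, 166, 218 and 146 CPM, KI-571 mice 176, 157, 139 and 154, and KI-FL mice 174, 156, 184 and 142. All KI mice lay within the WT range, and below the top of it. The log2 fold changes were 0.031 ± 0.17, -0.17 ± 0.17 and -0.11 ± 0.17 (edgeR adjusted p = 0.981, 0.929 and 0.771). Without WT mouse 3 the KI-FL value was 0.043, and with cortical markers in the model it was 0.024, so that its direction rested on that library. The plot of CPM in each mouse shows this point apart from the other WT mice.

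**Figure D3:**
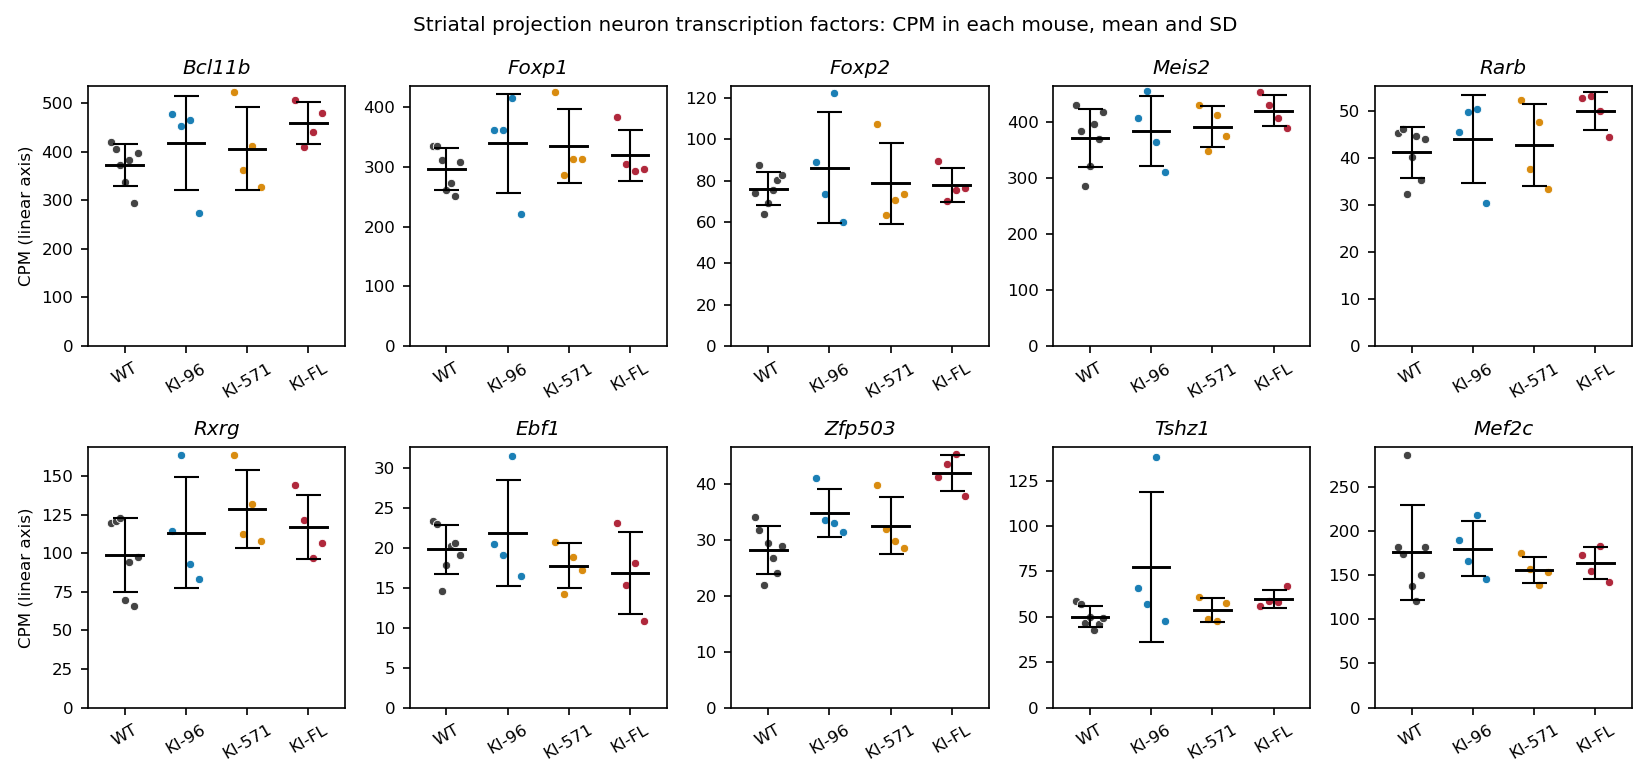
Level of each of the 10 genes in CPM (vertical axes, linear from 0) in every mouse of the WT (n = 7) and the 3 KI genotypes (n = 4 each), with the mean as a line and the SD as a bar. The KI-FL mice of Zfp503 lie above all WT mice, whereas the groups of the other genes overlap; the high points of Tshz1 at 138 CPM and Mef2c at 287 CPM are single mice.

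In direct comparisons of the KI genotypes 0 of the 10 members passed in edgeR or in DESeq2 between KI-96 and KI-FL, between KI-571 and KI-FL and between KI-96 and KI-571, where 0%, 0.0864% and 0.0054% of all genes passed in edgeR. At an unadjusted p under 0.05 the numbers were 0, 1 (Zfp503) and 1 (Tshz1), beside 8.9%, 8.9% and 5.51% of all genes. With DESeq2 they were 0, 1 and 1. Log2 differences were above 0 for 5, 4 and 8 members, beside 52.7%, 52.8% and 49.2% of all genes, and groups did not overlap for 0 members, beside 3.16%, 4.32% and 2.85% of all genes. The median log2 differences of the members were 0.021, -0.084 and 0.068 in the same order, and those of all genes were 0.017, 0.017 and -0.0049. Without single mice these medians of the members ran from -0.066 to 0.15, from -0.15 to -0.037 and from -0.011 to 0.20, the first turning negative without KI-96 mouse 2 or 3 or KI-FL mouse 3 or 4 and the last without KI-96 mouse 3. The largest values were for Tshz1, as above, and for Ebf1, with 0.38 ± 0.21 between KI-96 and KI-FL (edgeR adjusted p = 0.624).

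The spread between mice of the same genotype was large for some of the genes. In WT mice the SD of log2 CPM was 0.40 for Mef2c and 0.37 for Rxrg, at the 97.5 and 96.9 percentiles of the 7704 genes within the range of levels of the members, whose median was 0.14. The smallest was 0.16, for Foxp2. Between the lowest and the highest of the 19 mice, Tshz1 differed 3.22-fold, Ebf1 2.92-fold and Rxrg 2.48-fold, and Meis2, the steadiest, 1.59-fold. Several mice of both WT and KI genotypes were high or low in nearly the whole set. WT mouse 2, KI-96 mouse 1, KI-571 mouse 1 and KI-FL mouse 1 exceeded the WT mean in 10 of the 10 genes and WT mouse 1 in 9, whereas KI-96 mouse 4 and WT mouse 4 exceeded it in 1 and KI-571 mouse 2 in 2.

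Once the mean of each genotype was removed, the members varied together among mice. The Pearson correlation of log2 CPM over the 19 mice had a median of 0.52 over the 45 pairs of members, 42 of which were above 0 and 24 above 0.5, whereas the median over all pairs of the 7704 genes was 0.018. Bcl11b with Foxp1 was the closest pair (r = 0.895, rho = 0.847), followed by Bcl11b with Rarb (r = 0.815, rho = 0.763) and Meis2 with Rarb (r = 0.773, rho = 0.689). Foxp2 formed close pairs with Foxp1 (r = 0.769), Tshz1 (r = 0.751) and Ebf1 (r = 0.738). Mef2c had r between -0.18 (Meis2) and 0.55 (Foxp1) over all 19 mice, and between 0.28 (Rxrg) and 0.72 (Tshz1) once WT mouse 3 and KI-FL mouse 4 were left out, so that its low values rested on these libraries. Rxrg showed no relation to Tshz1 (r = -0.0026). Without the same 2 libraries the median over all pairs of members was 0.62 (17 mice, with KI-96 mouse 3 still among them). All of these values share the library, its depth and the dissection of the same piece of tissue, and are given as a description.

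**Figure D4:**
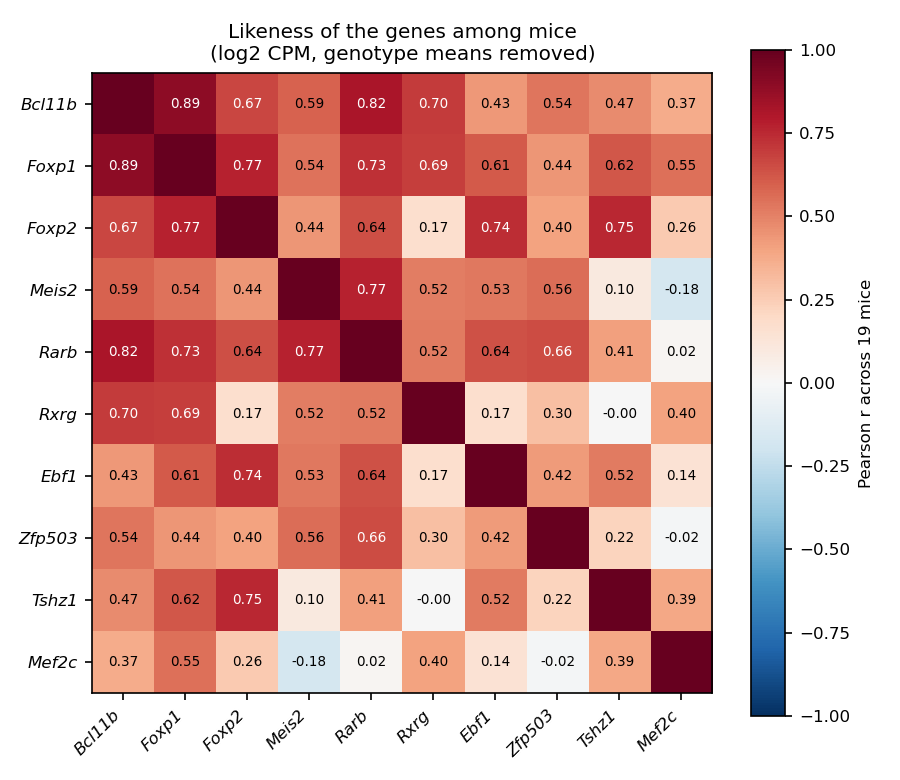
Pearson correlation (colour and printed value) of log2 CPM between each pair of the 10 genes over 19 mice, after the mean of each genotype was subtracted. Bcl11b, Foxp1, Rarb and Meis2 form a block of positive values from 0.54 to 0.895, and the row of Mef2c holds the lowest value, -0.18, which was 0.33 over 17 mice without WT mouse 3 and KI-FL mouse 4.

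Over the same 19 mice the genes were set beside the mean level of marker genes. With the 24 striatal projection neuron markers r had a median of 0.56 over the members and was above 0 for 9 of the 10. Rxrg followed these markers closest (r = 0.859, rho = 0.856), then Bcl11b (r = 0.723, rho = 0.739), Meis2 (r = 0.684, rho = 0.758) and Rarb (r = 0.654, rho = 0.658). Foxp2 (r = 0.212) and Ebf1 (r = 0.199) followed them only weakly, and Tshz1 (r = -0.097) and Mef2c (r = 0.064) did not follow them. Median r was -0.36 with oligodendrocyte markers, -0.33 with astrocyte markers, -0.33 with interneuron markers, -0.30 with microglia markers, -0.26 with cortical neuron markers, 0.14 with vascular markers and -0.050 with choroid plexus markers. Zfp503 had r = 0.587 (rho = 0.596) with vascular markers, for which 8 members were above 0, beside 0.534 (rho = 0.556) with projection neuron markers. Tshz1 had r = -0.824 (rho = -0.739) with interneuron markers, for which 0 members were above 0. Mef2c was the member that went most with cortical neuron markers (r = 0.656, rho = 0.404), and without WT mouse 3 and KI-FL mouse 4 its r was 0.151. The share of reads on no gene had a median r of 0.27 and was highest for Tshz1 (r = 0.784, rho = 0.244), whose high value came from KI-96 mouse 3. The part of tissue composition and of RNA quality in the levels of these genes was not tested.

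**Figure D5:**
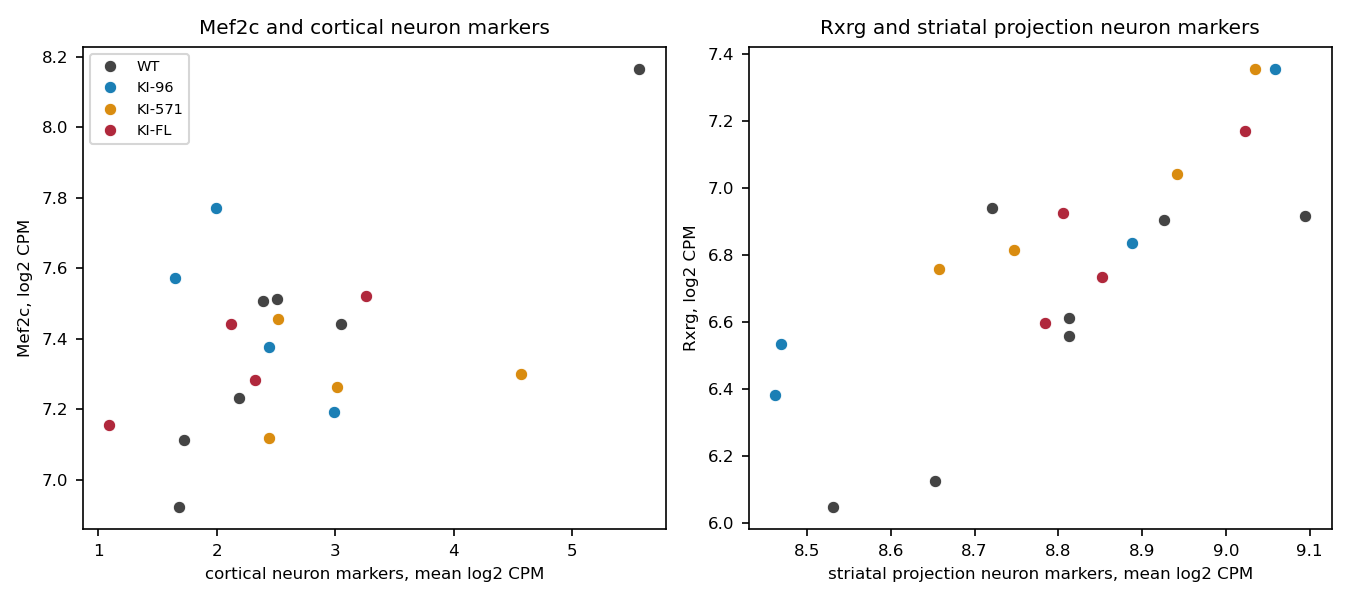
Log2 CPM of Mef2c against the mean log2 CPM of 11 cortical neuron markers (left) and of Rxrg against that of 24 striatal projection neuron markers (right), with 1 point for each of 19 mice coloured by genotype. A single WT mouse holds the top right of the left plot, whereas Rxrg rises with the markers across mice of every genotype.

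The genes outside the list whose level went most closely with each member were mostly different from member to member. For Bcl11b they were Scrn1, St8sia3 and Adcy5, an adenylyl cyclase enriched in the striatum (r = 0.943, 0.942 and 0.941), and for Rxrg Ngef and Lrrc10b were among them (r = 0.953 and 0.94). Adcy5 is also in the list of projection neuron markers. For Foxp1 they were Gpr158, Plcb1 and Tgfa (r = 0.96, 0.953 and 0.948), and for Foxp2 Galnt13, Lrrc58 and Rmnd5a (r = 0.942, 0.932 and 0.928). Meis2 went with Elmod1, Pou3f4 and St8sia2 (r = 0.863, 0.824 and 0.817), and Rarb with Pard3, Akap9 and Arel1 (r = 0.924, 0.915 and 0.915). Ebf1 went with Ino80d, Cdk13 and Pag1 (r = 0.895, 0.895 and 0.857), and Zfp503 with Prkch, Ripor2 and Smc1a (r = 0.928, 0.818 and 0.818). Those of Tshz1 were Chd8, Fut9 and Vps13a (r = 0.938, 0.933 and 0.924), and those of Mef2c were Pak7, Ntm and Dyrk2 (r = 0.898, 0.896 and 0.879). These are the highest of 10669 genes compared for each member over 19 mice, so that high values are to be found by the search alone. Without WT mouse 3 and KI-FL mouse 4 some of them no longer ranked high. Ripor2 then ranked 245 and Smc1a 54 for Zfp503, Ino80d 31, Cdk13 37 and Pag1 66 for Ebf1, and Pou3f4 24 and St8sia2 57 for Meis2. Dyrk2 ranked 20 for Mef2c and Arel1 17 for Rarb, and the other genes named ranked between 1 and 7. KI-96 mouse 3, the highest mouse for Tshz1, Foxp2 and Ebf1, was kept here, so that ranks that rested on it were not tested.

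Other genes of the same families and pathways were compared with the members. Of 24 relatives, such as Bcl11a, Meis1, the Pbx partners of Meis2 and the further retinoid receptors, 22 were tested and 0 passed in any KI genotype against WT in edgeR, with 3, 1 and 4 at an unadjusted p under 0.05 in the KI genotypes in order. Their median log2 fold changes were 0.031, 0.023 and 0.018. Rxra, a retinoid X receptor like Rxrg, was at 54.1 ± 7.23 CPM in KI-FL mice (n = 4) and 42.6 ± 2.65 in WT mice (n = 7), a log2 fold change of 0.35 ± 0.086 (edgeR adjusted p = 0.0791), and it was the relative that passed with DESeq2 in KI-FL mice. Ebf4, a relative of Ebf1, was lower in each KI genotype, by log2 fold changes of -0.48 ± 0.21, -0.57 ± 0.21 and -0.38 ± 0.21 that did not pass in edgeR (adjusted p = 0.653, 0.457 and 0.37).

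Of 22 other transcription factors of the striatal lineage, among them the Dlx genes, Isl1, Six3 and Sp9, all were tested and 0 passed in edgeR or DESeq2 against WT. Their median log2 fold changes were 0.075 in KI-96, -0.083 in KI-571 and 0.15 in KI-FL mice, with 3, 0 and 4 at an unadjusted p under 0.05 in edgeR. Zfhx3, a homeodomain and zinc finger factor, had values of 0.62 ± 0.19, -0.019 ± 0.20 and 0.43 ± 0.19 (edgeR adjusted p = 0.552, 0.998 and 0.274).

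Genes that supply or clear retinoic acid or act with its receptors numbered 20, of which 16 were tested and 0 passed in edgeR, with 0, 3 and 5 at an unadjusted p under 0.05 in the KI genotypes in order. Their medians were 0.12, -0.017 and 0.066 on the log2 scale. Stra6, a retinol transporter, had a log2 fold change of 1.497 ± 0.34 in KI-571 mice (edgeR adjusted p = 0.10049), and it passed there with DESeq2. All 8 choroid plexus markers had an unadjusted p under 0.05 in the same comparison, with a median log2 fold change of 3.40. The part of that tissue in the Stra6 value was not tested.

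The 24 projection neuron markers, which report on the same cells, gave 0 genes past the threshold in either tool in any KI genotype against WT. Their median log2 fold changes were -0.061, 0.059 and 0.055, with 2, 1 and 0 at an unadjusted p under 0.05 in edgeR and 3, 1 and 2 in DESeq2. Gnal, a striatal G protein subunit, had the value 0.29 ± 0.13 in KI-96 mice and Actn2 0.30 ± 0.14 in KI-571 mice (edgeR adjusted p = 0.653 and 0.613). Oligodendrocyte markers had medians of -0.16, -0.13 and -0.28, cortical neuron markers -1.70, -0.13 and -1.29, and astrocyte markers -0.040, -0.017 and -0.22 in the same order. The cortical medians depended on WT mouse 3, without which they were 0.10, 1.29 and 0.014, a comparison added after seeing the data. The KI-96 and KI-FL medians thus shrank without it, whereas the KI-571 median rose. KI-571 mouse 2 held 577 CPM of these markers, and the other KI-571 mice 171 to 217 CPM. Medians were 0.17, 0.15 and 0.048 for vascular, 0.017, 0.16 and 0.075 for microglia and -0.17, -0.37 and -0.33 for interneuron markers. In KI-FL mice, where Zfp503 passed, the 10 oligodendrocyte markers summed to 10229 to 11837 CPM against 10852 to 15496 in WT mice, and all 10 had reads in each mouse. The part of such shifts in the fold changes of the members was not tested.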

How the data were processed

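Striatal RNA of 19 mice was measured by RNA sequencing, and genotypes and replicate numbers came from the labels. The deposited values are raw counts of reads for each gene, with no normalization. By the study's methods adapters were trimmed with BBduk and reads were aligned to GRCm38 with STAR and counted with HTSeq. Versions, annotation and strand setting are not given in the sources used here. The 4 columns of the table that match no labelled mouse and the 5 summary lines of HTSeq were not used. A WT sample that the study left out is not named, so that all 7 were kept. The study's methods give 4 to 5 mice for each genotype, fewer than the 7 labelled for WT.

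Counts were normalized by TMM, filtered with filterByExpr (minimum count 10, minimum total 15) and fitted with edgeR 4.0.16 in R 4.3.3, with all 19 mice in a single model, a coefficient per genotype and no covariate. The quasi-likelihood F-test was used with Benjamini-Hochberg adjustment over 18521 genes (threshold 0.05). The common biological coefficient of variation came to 0.240. Log2 CPM used a prior count of 2, and TPM used exon lengths of GENCODE mouse release 21. No sample pair of a genotype agreed within sampling noise (smallest chi-square per degree of freedom 7.78). Total counts on genes were 12669809 to 26388542, and 3 counts correspond to 0.114 to 0.237 CPM, which covers counting error only.

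The members and all gene lists were chosen with earlier results of these data known, so that no test was made over a list. Named genes were the members, the 3 genes most like each member, the genes of other lists with an adjusted p under 0.05 or otherwise the 2 with the smallest p in all KI mice against WT, and Htt and Xist. Some genes that this rule names are not reported here. Among the cell type markers, the oligodendrocyte gene Ugt8a (log2 fold change -0.64, edgeR adjusted p = 0.0355 in all KI mice against WT) passed. Correlations over mice carry no p. Alternatives were DESeq2 1.42.0, its size factors, no filter, at least 10 counts in every mouse, WT mice 1 to 4 or 5 to 7 alone, Xist or cortical markers as a covariate, a replicate block, the compared groups alone, a threshold of 0.1 and each mouse left out. Same-numbered mice are different animals. On simulated counts for KI-FL against WT with 18521 genes and 200 changed, edgeR called 53% of genes changed 2-fold and 83% of those changed 4-fold, and 6.21% of its calls were false.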

Additional observations from a re-analysis of the deposited data

Results flagged for a closer look

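Each of the 10 genes was examined for a mouse far from the others of its genotype, by the ratio of its gap to the range of the group, in 40 groups of 4 or 7 mice. Chance alone gives about 1 in 20 groups, or 2 of 40, and 2 were found. Bcl11b was at 8.10 log2 CPM in KI-96 mouse 4, below the other KI-96 mice at 8.82 to 8.90. Foxp1 was at 8.58 log2 CPM in KI-FL mouse 1, above the other KI-FL mice at 8.19 to 8.25.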

How the results depend on the processing

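Over 30 alternative settings 2030 fold changes of the 10 genes were compared with the main fit. The threshold of 0.1 is among the settings and reads that fit again, so that no direction could change under it. Of the 2030, 1942 kept their direction and their side of the threshold and 68 changed direction, all of them values that had not passed. The others were Zfp503, which lost its call in KI-FL mice under 19 settings and gained one in all KI mice with DESeq2. The 1 member that passed in KI-FL against WT became 0 with WT mice 1 to 4 alone, with Xist as a covariate, with WT mice 5 to 7 alone (chosen after seeing the data) and with the replicate block, and ranged from 0 to 1 when single mice were left out. In all KI mice against WT it became 1 with DESeq2. The cause was not tested. Without single mice the median over the members ran from 0.074 to 0.32 in KI-96, from -0.0011 to 0.14 in KI-571, from 0.12 to 0.25 in KI-FL and from 0.11 to 0.20 in all KI mice against WT. With Xist as a covariate the median of KI-96 against KI-FL was -0.036.

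Same-numbered mice of different genotypes were no more alike than others in the median, with r of -0.0048 (24 pairs, -0.13 to 0.29) against -0.0049 for 108 other pairs. A median cannot show whether mice of some numbers share a sacrifice batch. With the replicate block Zfp503 in KI-FL was at 0.53 (edgeR adjusted p = 0.358), and Mef2c in KI-96 changed direction to -0.096.

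Other changes of direction were small. With WT mice 1 to 4 alone Mef2c in KI-96 was at -0.12. With Xist as a covariate the values in KI-96 against WT were -0.031 for Meis2 and -0.041 for Mef2c, in KI-571 against KI-FL -0.018 for Foxp2, and in KI-96 against KI-571 -0.028 for Foxp1, -0.0020 for Rarb and -0.023 for Zfp503. With cortical markers as a covariate they were -0.022 for Foxp2 and 0.024 for Mef2c in KI-FL against WT, and -0.0071 for Bcl11b and -0.045 for Rarb in KI-96 against KI-571. With WT mice 5 to 7 alone they were -0.039 for Meis2 in KI-96, -0.013 for Foxp2, -0.011 for Meis2 and 0.047 for Mef2c in KI-571, -0.028 for Foxp2 and 0.12 for Mef2c in KI-FL, and 0.14 for Mef2c in all KI mice.

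Leaving out single mice changed the direction of the following fold changes (log2). In KI-96 against WT the values ran from -0.042 to 0.32 for Foxp2, from -0.049 to 0.13 for Meis2, from -0.031 to 0.32 for Rxrg, from -0.089 to 0.26 for Ebf1, from -0.077 to 0.19 for Mef2c. In KI-571 against WT the values ran from -0.024 to 0.21 for Bcl11b, from -0.14 to 0.14 for Foxp2, from -0.062 to 0.16 for Rarb. In KI-FL against WT the values ran from -0.0053 to 0.14 for Foxp1, from -0.054 to 0.081 for Foxp2, from -0.19 to 0.043 for Mef2c. In all KI against WT the values ran from -0.16 to 0.072 for Mef2c. In KI-96 against KI-FL the values ran from -0.21 to 0.020 for Bcl11b, from -0.013 to 0.25 for Foxp1, from -0.063 to 0.29 for Foxp2, from -0.28 to 0.076 for Rxrg, from -0.069 to 0.54 for Tshz1. In KI-571 against KI-FL the values ran from -0.059 to 0.18 for Foxp1, from -0.16 to 0.11 for Foxp2, from -0.089 to 0.28 for Ebf1, from -0.13 to 0.0024 for Mef2c. In KI-96 against KI-571 the values ran from -0.051 to 0.20 for Bcl11b, from -0.091 to 0.18 for Foxp1, from -0.090 to 0.32 for Foxp2, from -0.12 to 0.062 for Meis2, from -0.060 to 0.19 for Rarb.

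Over all genes edgeR called 5, 6, 36 and 10 genes in KI-96, KI-571, KI-FL and all KI mice against WT, and DESeq2 called 28, 115, 509 and 285. Without a filter the counts were 23, 78, 85 and 140, with at least 10 counts in every mouse 0, 3, 55 and 11, with cortical markers 2, 4, 68 and 18, with Xist 0, 6, 0 and 0, with the block 0, 1, 0 and 0, with WT mice 1 to 4 0 in each, and with WT mice 5 to 7 28, 18, 40 and 49. With only the compared groups in the fit KI-96, KI-571 and KI-FL gave 0, 55 and 336, and at a threshold of 0.1 the counts were 11, 29, 265 and 124. Without single mice they ranged over 1 to 10, 0 to 46, 0 to 159 and 3 to 173. Each member had at least 165 reads in each mouse.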
